A study of Callithrix jacchus with 20 samples.

Results

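The levels of 10 imprinted genes were followed in common marmoset (Callithrix jacchus) embryonic stem cell (ESC) lines made by somatic cell nuclear transfer and in embryoid bodies (EBs), the mixed aggregates that form when such lines differentiate in suspension. The genes were chosen by name for the allele that they are known to use, after earlier results of these data had been seen. In 7 of them the paternal copy is the active one (IGF2, DLK1, PEG3, PEG10, MEST, PLAGL1 and NNAT), and in 3 the maternal copy is (CDKN1C, PHLDA2 and GRB10). All 10 were among the 22330 genes of the stem cell table and the 22803 genes of the EB table. All 10 also passed the filter on low values, a mean of at least 0.5 TPM (a transcript level scaled for length and library size), in each fit.

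The 20 poly(A) RNA libraries comprised 3 ntESC WT lines (#30, #53 and #61) and 4 ntESC GFP lines (#24, #50, #54 and #55). The former were made with nuclei of wild-type fibroblasts and the latter with nuclei of fibroblasts that carry a CAG-EGFP transgene. Both kinds of fibroblast came from ear skin. The study describes the GFP donor fibroblasts as adult, and its text gives no age for the WT donors. The reference for the ntESC lines was 4 control ESC lines from fertilized embryos. Of these, #15 and #17 came from in vitro fertilization (IVF) and #13 and #37 from natural fertilization (NAT). A further 1 library came from the WT donor fibroblasts. The embryos behind all 7 nuclear transfer lines had been given trichostatin A, mouse Kdm4d mRNA and the G9a inhibitor RK-701, so nuclear transfer and these agents cannot be told apart. EBs came from ntESC WT #30, #53 and #61 (ntEB WT), ntESC GFP #24 and #50 (ntEB GFP) and control lines #13, #17 and #37 (control EB). Each line gave 1 library per stage, so a replicate is a line. Nothing says that each line came from its own animal, so the p-values may measure no more than how lines vary. Passage ranges were not the same in nuclear transfer and control lines, and line #54 showed a translocation at a later passage.

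Imprinted genes carry DNA methylation set in the egg or the sperm, which leaves 1 parental copy active. The marks are kept through early development and in the somatic cells whose nuclei are used for transfer. Many imprinted genes act on growth of the fetus and placenta, with paternally expressed genes tending to promote it and maternally expressed genes tending to restrain it. Which parental copy is used is known here mainly from human and mouse, and GRB10 uses different copies in different tissues. RNA was counted per gene and not per allele, so a level does not say which copy was active.

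All 9 measured pluripotency markers were at 1 TPM or more in every ntESC and control ESC library, where their summed level was 3780 to 9209.6 TPM in ntESC lines and 7650 to 9279 TPM in control ESC lines. The lowest sums were those of ntESC WT #30 (4159 TPM) and #53 (3780 TPM). In the same libraries the 10 fibroblast and mesenchyme markers summed to 1315 TPM (#30) and 1133 TPM (#53), against 157 to 424 TPM in the other ntESC lines and 289 to 497 TPM in control ESC lines. Both lines were also above every other ntESC line and every control ESC line in the summed markers of trophoblast and amnion (1342 and 489 TPM, against at most 240.2 TPM in other ntESC and 245 TPM in control ESC lines), muscle (704 and 408 TPM, against at most 193 and 305 TPM), liver and yolk sac (61.4 and 49.5 TPM, against at most 31.1 and 24.3 TPM) and neural cells (527 and 601 TPM, against at most 352 and 394 TPM). In EBs the pluripotency sum was 34.4 to 187 TPM except in ntEB GFP #24 (5436 TPM), and the mesenchyme sum was 2192 to 46729 TPM in ntEBs and 6750.5 to 12144 TPM in control EBs. In bulk RNA, fewer cells of a type and less RNA per cell cannot be told apart.

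In control ESC lines the 10 genes covered a wide range of levels. MEST, which encodes a hydrolase-like membrane protein, was highest with 356 ± 19.2 TPM (SD, n = 4). PEG3, a zinc finger protein gene, followed with 213 ± 34.3 TPM and PEG10, a retrotransposon-derived gene needed for the mouse placenta, with 172 ± 58.5 TPM, and the ranges of these 2 genes over lines overlapped. GRB10, an adaptor that restrains insulin and IGF receptor signalling, had 58.4 ± 7.97 TPM. NNAT, a small membrane protein gene of the developing brain, had 29.0 ± 9.02 TPM, PHLDA2, a pleckstrin homology domain gene that limits placental growth in the mouse, 12.8 ± 3.88 TPM, and CDKN1C, which encodes the cyclin-dependent kinase inhibitor p57, 7.77 ± 2.35 TPM, each overlapping its neighbour in this order. The lowest were DLK1, a transmembrane relative of Notch ligands, with 4.15 ± 0.658 TPM, IGF2, the fetal growth factor, with 2.16 ± 1.82 TPM, and PLAGL1, a zinc finger factor that restrains the cell cycle, with 0.737 ± 0.190 TPM, and IGF2 overlapped both of the others.

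The donor fibroblast library had another profile. PEG10 led with 495 TPM, followed by PLAGL1 with 40.4 TPM, GRB10 with 33.4 TPM and PHLDA2 with 13.3 TPM. NNAT (7.57 TPM), PEG3 (6.72 TPM), MEST (6.59 TPM), CDKN1C (3.02 TPM) and IGF2 (2.76 TPM) were low, and DLK1 was listed at 0. With 1 library this profile has no replicate check. The fibroblast library was above all 4 control ESC lines in PEG10 and PLAGL1, and below all 4 in DLK1, PEG3, MEST, NNAT, CDKN1C and GRB10.

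**Figure D1:**
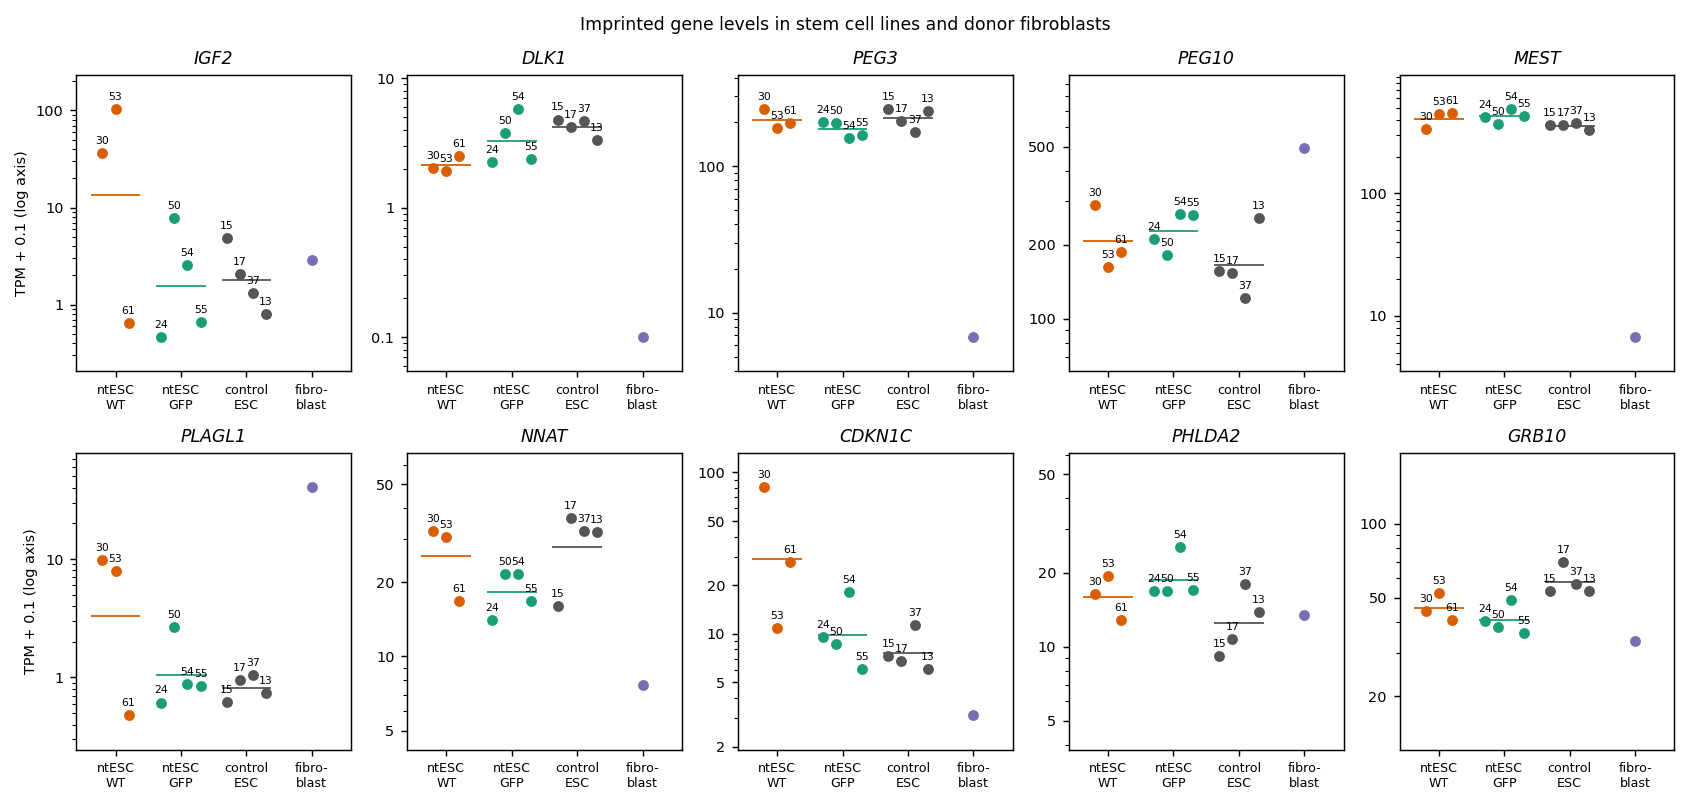
Level of each imprinted gene in every stem cell library, as TPM + 0.1 on a log axis, for ntESC WT, ntESC GFP and control ESC lines and the donor fibroblasts. Points are libraries with their line number and bars are group means on the log2 scale. IGF2 stood at 36.0 and 104 TPM in ntESC WT #30 and #53, against at most 4.77 TPM in control ESC lines, while GRB10 was lower in all 7 ntESC lines than in all 4 control lines.

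The first question was whether the level of an imprinted gene differed between stem cell lines made by nuclear transfer and lines from fertilized embryos. IGF2 and PLAGL1 were far above the control lines in ntESC WT #30 and #53 and below them in #61. Both genes were also above every control line in ntESC GFP #50 and below them in #24. CDKN1C was highest in #30 and #61, and GRB10 and, among WT lines, DLK1 were lower in every nuclear transfer line. None of these differences passed the test at a Benjamini-Hochberg adjusted p of 0.05 by limma. The count was 0 of 10 genes in ntESC WT (background 0.0931% of all genes called), 0 of 10 in ntESC GFP (0.441%) and 0 of 10 for both donors together (0.211%). At an unadjusted p under 0.05 there were 4, 3 and 5 of the 10 genes, against 3103, 2229 and 2294 of all 16118 genes tested.

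Among the paternally expressed genes, IGF2 had 36.0 TPM (#30), 104 TPM (#53) and 0.554 TPM (#61) in ntESC WT lines. ntESC GFP lines had 0.363 TPM (#24), 7.65 TPM (#50), 2.47 TPM (#54) and 0.557 TPM (#55), and control ESC lines 4.77 TPM (#15), 1.97 TPM (#17), 1.21 TPM (#37) and 0.693 TPM (#13). So 2 WT lines were far above every control line and the third lay below them. Among the GFP lines, #50 was above every control line, #24 and #55 were below them, and #54 lay within the control range. The log2 difference was 2.91 (SE 1.54, adjusted p = 0.313 by limma) in ntESC WT and −0.20 (SE 1.43, adjusted p = 0.965) in ntESC GFP. The WT value was larger without #61, at 5.09 (adjusted p = 0.0143), and was −1.46 with #30 and #53 both left out, an alternative chosen after seeing the data.

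PLAGL1 followed the same lines as IGF2. It had 9.63 TPM (#30), 7.86 TPM (#53) and 0.377 TPM (#61) in ntESC WT lines, 0.513 TPM (#24), 2.57 TPM (#50), 0.778 TPM (#54) and 0.739 TPM (#55) in ntESC GFP lines, and 0.521 to 0.941 TPM in control ESC lines. Lines #30, #53 and #50 were above all controls, while #61 and #24 were below them. The log2 difference was 2.02 in ntESC WT (SE 0.92, adjusted p = 0.259 by limma), 3.42 without #61 (adjusted p = 0.00515), and −0.78 with #30 and #53 both left out. Over both donors it was 1.19 (adjusted p = 0.503), 1.89 without #61 (adjusted p = 0.0453) and −0.21 without #30 and #53. Without #61, 2 of 10 genes passed in ntESC WT (background 18.0%) and 1 of 10 over both donors (background 2.36%). The raised sums of #30 and #53 for mesenchyme, trophoblast and amnion, muscle, liver and yolk sac, and neural markers, and their lower pluripotency sums, stand beside these values, and the fibroblast library itself held 2.76 TPM of IGF2 and 40.4 TPM of PLAGL1. The part of any of these marker lists in the result was not tested.

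DLK1 had 1.91, 1.82 and 2.39 TPM in ntESC WT #30, #53 and #61, against 3.23 to 4.69 TPM in control ESC lines. These groups did not overlap, and the log2 difference was −0.98 (SE 0.33, adjusted p = 0.180 by limma). In ntESC GFP lines DLK1 ranged from 2.17 to 5.70 TPM and overlapped the controls. PEG3 stayed within 156 to 246 TPM, PEG10 within 121 to 290 TPM and MEST within 329 to 491 TPM over all ntESC and control ESC lines. MEST had a log2 difference of 0.23 over both donors (SE 0.10, adjusted p = 0.351) and PEG10 of 0.39 (SE 0.22, adjusted p = 0.437). NNAT averaged 18.4 ± 3.73 TPM in ntESC GFP lines and 29.0 ± 9.02 TPM in control ESC lines (SD, n = 4 each), with overlap at control #15, and a log2 difference of −0.61 (SE 0.29, adjusted p = 0.382).

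Among the maternally expressed genes, CDKN1C had 81.1 TPM (#30), 10.7 TPM (#53) and 27.8 TPM (#61) in ntESC WT lines. ntESC GFP lines had 9.46 TPM (#24), 8.52 TPM (#50), 18.1 TPM (#54) and 5.96 TPM (#55), against 5.97 to 11.2 TPM in control ESC lines. Lines #30, #61 and #54 were above all controls, #53, #24 and #50 lay within the control range, and #55 lay just under it. The log2 difference was 1.93 in ntESC WT (SE 0.58, adjusted p = 0.164 by limma) and 0.35 in ntESC GFP (SE 0.53, adjusted p = 0.802).

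GRB10 was the gene that separated the groups without overlap. It had 44.3, 52.1 and 40.7 TPM in ntESC WT #30, #53 and #61 and 40.4, 38.2, 49.0 and 35.8 TPM in ntESC GFP #24, #50, #54 and #55, against 53.2, 70.0, 57.0 and 53.3 TPM in control ESC #15, #17, #37 and #13. The highest nuclear transfer line was thus just under the lowest control line. The log2 difference was −0.35 in ntESC WT (SE 0.14, adjusted p = 0.230 by limma), −0.52 in ntESC GFP (SE 0.13, adjusted p = 0.137) and −0.43 over both donors (SE 0.12, adjusted p = 0.164). PHLDA2 went the other way, with 16.1 ± 3.28 TPM in ntESC WT (SD, n = 3) and 18.9 ± 4.27 TPM in ntESC GFP (SD, n = 4), against 12.8 ± 3.88 TPM in control ESC lines, whose highest line (17.9 TPM, #37) was above 5 of the 7 nuclear transfer lines. Its log2 difference over both donors was 0.46 (SE 0.20, adjusted p = 0.339).

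Groups that did not overlap were common among all genes. In ntESC WT it was 2 of 10 imprinted genes (DLK1 and GRB10, both lower; background 13.1%), in ntESC GFP 1 of 10 (GRB10; background 11.6%), and for all ntESC lines together 1 of 10 (GRB10; background 2.56%).

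**Figure D2:**
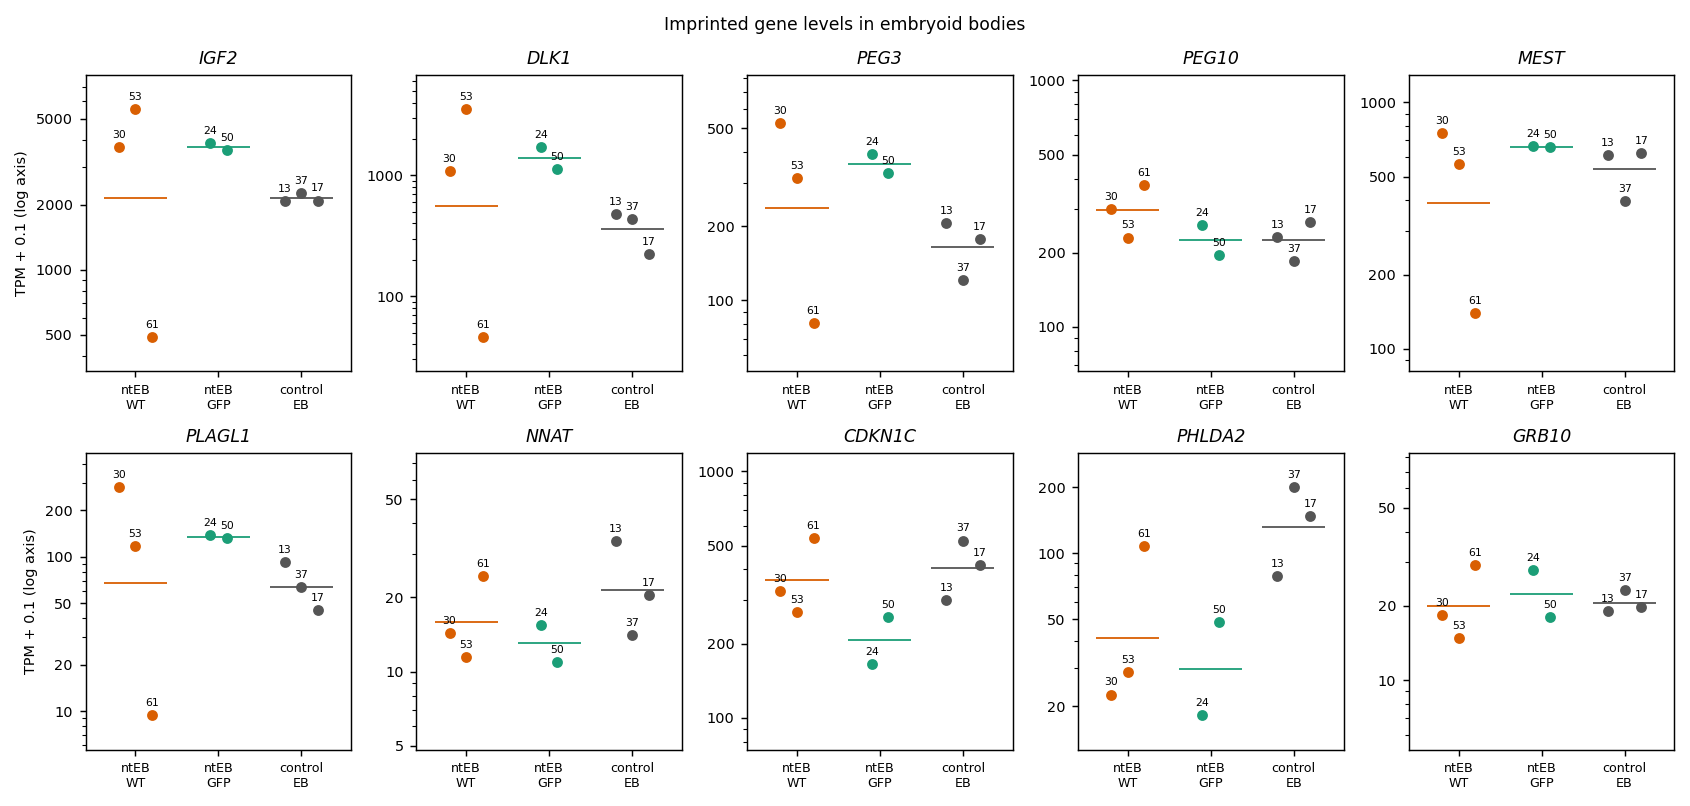
Level of each imprinted gene in every EB library, as TPM + 0.1 on a log axis, for ntEB WT, ntEB GFP and control EB. Points are libraries with their line number and bars are group means on the log2 scale. DLK1 spanned 45.7 to 3558 TPM in ntEB WT, against 223 to 478 TPM in control EBs, and PHLDA2 was lowest in ntEB GFP #24 (18.1 TPM).

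The second question was whether levels differed once the lines had differentiated. In EBs, 4 of the 5 nuclear transfer lines had more IGF2, DLK1, PEG3 and PLAGL1 and less PHLDA2 than every control EB, and ntEB WT #61 departed from them in the other direction for IGF2, DLK1, PEG3 and PLAGL1. These 4 lines were set apart after the values were seen, and the share of all genes that separate them from control EBs was not computed. Over all 5 ntEB lines, 0 of 10 genes separated them from the controls (background 4.37%). No gene passed the test. The count was 0 of 10 in ntEB WT (background 0.00602%), 0 of 10 in ntEB GFP (0.012%) and 0 of 10 over both donors (0%). At an unadjusted p under 0.05 there were 1, 2 and 1 of the 10 genes, against 637, 1573 and 1144 of 16621 genes.

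IGF2 was the most abundant of the 10 genes in every EB library except ntEB WT #61, where CDKN1C (535 TPM) was above it. IGF2 was at 3690 TPM (#30), 5549 TPM (#53) and 488 TPM (#61) in ntEB WT and 3862 TPM (#24) and 3563 TPM (#50) in ntEB GFP. Control EBs had 2084 TPM (#13), 2275 TPM (#37) and 2090 TPM (#17). The controls were close together (highest over lowest 1.09), and every ntEB except #61 was above them. The log2 difference over both donors was 0.40 (SE 0.71, adjusted p = 0.875 by limma).

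DLK1 had 1085 TPM (#30), 3558 TPM (#53) and 45.7 TPM (#61) in ntEB WT and 1712 TPM (#24) and 1138 TPM (#50) in ntEB GFP, against 478 TPM (#13), 437 TPM (#37) and 223 TPM (#17) in control EBs. Again #61 was below all controls and the other 4 lines were above all of them. The log2 difference was 0.64 in ntEB WT (SE 1.38, adjusted p = 0.992 by limma), with a range of −0.69 (without #53) to 2.45 (without #61) when libraries were left out in turn, and 1.95 in ntEB GFP (SE 1.54, adjusted p = 0.626).

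PLAGL1 and PEG3 had the same order of groups. PLAGL1 was at 282 TPM (#30), 118 TPM (#53) and 9.28 TPM (#61) in ntEB WT and 139 TPM (#24) and 131 TPM (#50) in ntEB GFP, against 91.9 TPM (#13), 63.5 TPM (#37) and 45.0 TPM (#17) in control EBs. PEG3 was at 525 TPM (#30), 314 TPM (#53) and 81.0 TPM (#61) in ntEB WT and 392 TPM (#24) and 328 TPM (#50) in ntEB GFP, against 206 TPM (#13), 121 TPM (#37) and 178 TPM (#17) in control EBs. For both genes #61 was the lowest of the 8 EB libraries and the other nuclear transfer lines were above every control. The log2 difference over both donors was 0.58 for PLAGL1 (SE 0.98, adjusted p = 0.868 by limma) and 0.83 for PEG3 (SE 0.56, adjusted p = 0.721). MEST was likewise lowest in ntEB WT #61 (140 TPM), against 398 to 623 TPM in control EBs, and was 563 to 749 TPM in the other 4 nuclear transfer lines.

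PEG10 (196 to 378 TPM in ntEBs and 184 to 266 TPM in control EBs) and NNAT (10.9 to 24.3 TPM in ntEBs and 14.0 to 33.8 TPM in control EBs) overlapped between the groups. In ntEB WT #61 PEG10 was the highest of the 8 EB libraries (378 TPM), and NNAT (24.3 TPM) lay within the control range, unlike the other 5 paternally expressed genes. Their log2 differences (PEG10, then NNAT) over both donors were 0.20 (SE 0.22, adjusted p = 0.801 by limma) and −0.57 (SE 0.37, adjusted p = 0.721).

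Among the maternally expressed genes, PHLDA2 had 22.6 TPM (#30), 28.7 TPM (#53) and 108 TPM (#61) in ntEB WT and 18.1 TPM (#24) and 48.7 TPM (#50) in ntEB GFP, against 78.4 TPM (#13), 201 TPM (#37) and 147 TPM (#17) in control EBs. Here #61 lay within the control range and the other 4 lines were below it. The log2 difference was −1.68 in ntEB WT (SE 0.67, adjusted p = 0.984 by limma), −2.15 in ntEB GFP (SE 0.74, adjusted p = 0.528) and −1.92 over both donors (SE 0.60, adjusted p = 0.696). CDKN1C had 327, 270 and 535 TPM in ntEB WT #30, #53 and #61 and 165 and 257 TPM in ntEB GFP #24 and #50, against 300 TPM (#13), 524 TPM (#37) and 418 TPM (#17) in control EBs. Both GFP lines and #53 were below all controls, and the log2 difference in ntEB GFP was −0.97 (SE 0.37, adjusted p = 0.528). GRB10 was 14.7 to 29.2 TPM in ntEBs and 18.98 to 23.2 TPM in control EBs.

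ntEB WT #61 decided the count over both donors. Without it 4 of 10 genes passed (background 4.02%), with log2 differences of 0.93 for IGF2 (adjusted p = 0.0457 by limma), 2.20 for DLK1 (adjusted p = 0.0488), 1.22 for PEG3 (adjusted p = 0.0491) and −2.26 for PHLDA2 (adjusted p = 0.0429). Beside its low IGF2, DLK1, PEG3, MEST and PLAGL1, #61 had the lowest mesenchyme (2192 TPM), muscle (189.5 TPM) and neural (8.00 TPM) sums of the EB libraries, and the part of these markers was not tested. Groups that did not overlap numbered 0 of 10 genes in ntEB WT (background 9.86%), 7 of 10 in ntEB GFP (IGF2, DLK1, PEG3, MEST and PLAGL1 higher, CDKN1C and PHLDA2 lower; background 37.8%) and 0 of 10 over all ntEBs (background 4.37%).

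The third question was how the genes moved from the stem cell to the EB stage, and whether nuclear transfer lines moved alike. In control lines 6 of 10 genes passed the test (background 56.6%). IGF2 rose by 10.22 on the log2 scale (SE 1.37, adjusted p = 2.31e-05 by limma), to 2149 ± 109 TPM in control EBs (SD, n = 3), against 2.16 ± 1.82 TPM in control ESCs (SD, n = 4). DLK1 rose by 6.42 (SE 0.93, adjusted p = 4.23e-05), PLAGL1 by 6.29 (SE 1.02, adjusted p = 0.000111), CDKN1C by 5.72 (SE 0.51, adjusted p = 1.44e-06) and PHLDA2 by 3.40 (SE 0.47, adjusted p = 3.06e-05). GRB10 fell by 1.49 (SE 0.21, adjusted p = 3.94e-05), to 20.6 ± 2.25 TPM in control EBs, against 58.4 ± 7.97 TPM in control ESCs. The changes of PEG3 (−0.36), PEG10 (0.44), MEST (0.59) and NNAT (−0.38) did not pass.

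In WT lines the same 6 genes passed (background 46.4%), with log2 differences of 7.32 for IGF2, 8.04 for DLK1, 4.35 for PLAGL1, 3.64 for CDKN1C, 1.37 for PHLDA2 and −1.19 for GRB10. The PHLDA2 call had an adjusted p of 0.0357 by limma and did not hold with the line as a block (1.37, adjusted p = 0.0665), where 5 of 10 genes passed (background 41.0%), nor in the same 16 libraries of 8 lines without the pairing (1.37, adjusted p = 0.0567; 5 of 10 genes, background 41.7%), an alternative added after seeing the data. It did not hold either without the #61 EB (0.68, adjusted p = 0.195), the #61 stem cells (1.21, adjusted p = 0.110) or the #30 stem cells (1.39, adjusted p = 0.0664). In GFP lines 5 of 10 passed (background 29.8%), with 11.21 for IGF2, 8.73 for DLK1, 7.01 for PLAGL1, 4.40 for CDKN1C and −0.86 for GRB10, while PHLDA2 had 0.67 (adjusted p = 0.361). With the line as a block GRB10 did not hold there (−0.81, adjusted p = 0.128) and 4 of 10 genes passed (background 12.7%), and in the same 16 libraries without the pairing it did not hold either (−0.81, adjusted p = 0.0898; 4 of 10 genes, background 12.1%). Without ntEB GFP #50 it was −0.54 (adjusted p = 0.337), and 563 genes passed in all, against 4929. That arm was then 1 EB library, #24, with its pluripotency sum of 5436 TPM, and it was assumed to vary like the other groups. PEG3, at 1.01 in GFP lines (adjusted p = 0.114), passed without ntEB WT #61 (adjusted p = 0.00447) and without ntEB WT #30 (adjusted p = 0.0492).

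**Figure D3:**
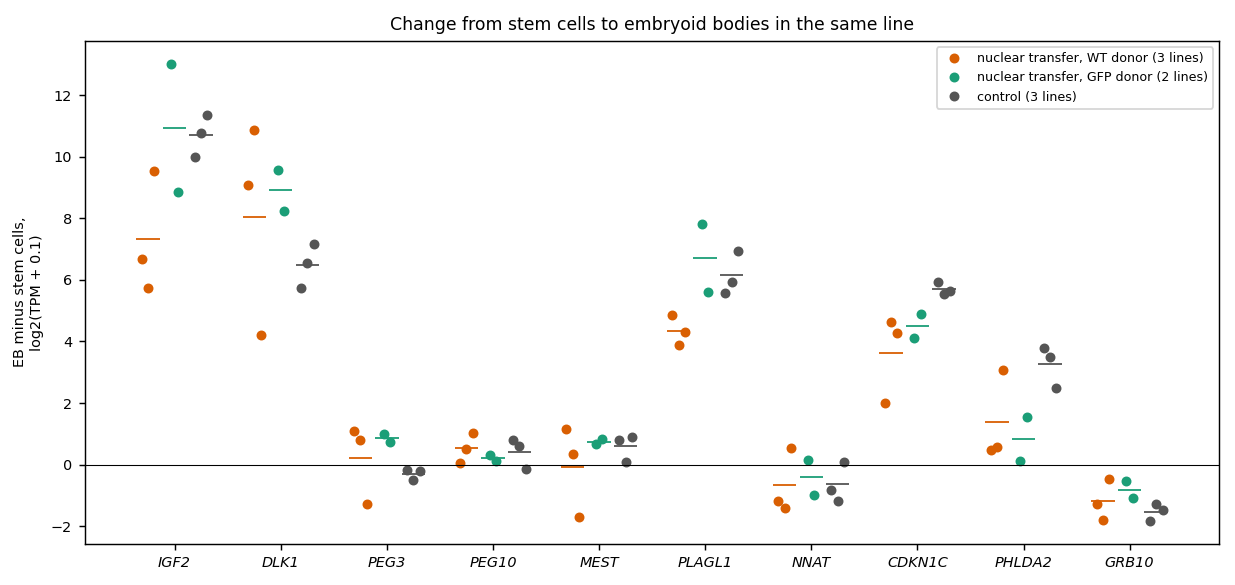
Change of each imprinted gene between EBs and stem cells of the same line, as the difference of log2(TPM + 0.1), for WT, GFP and control lines with both stages. Each point is a line and bars are group means. PEG3 was between −0.49 and −0.19 in the 3 control lines and between 0.74 and 1.09 in 4 of the 5 nuclear transfer lines, and PHLDA2 was 0.11 to 1.54 in those 4 lines, against 2.50 to 3.78 in control lines.

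Within single lines, PHLDA2 differed by 0.47 (#30), 0.57 (#53) and 3.07 (#61) in WT lines and by 0.11 (#24) and 1.54 (#50) in GFP lines, against 2.50 (#13), 3.78 (#17) and 3.48 (#37) in control lines, on the log2 scale. PEG3 had 1.09 (#30), 0.79 (#53) and −1.28 (#61) in WT lines and 0.98 (#24) and 0.74 (#50) in GFP lines, against −0.20, −0.19 and −0.49 in control #13, #17 and #37. Line #61 thus differed from the other nuclear transfer lines in both genes. IGF2 was positive in all 8 lines and lay between 5.74 (#53) and 13.03 (#24), with the smallest values in #53 and #30, the lines in which it was already high as stem cells. The stem cell level is subtracted in this change, so a high level there lowers the change by itself.

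The test of the difference between these responses gave 0 of 10 genes in WT (background 0%) and 0 of 10 in GFP lines (background 0.0181%). At an unadjusted p under 0.05 there were 2 of 10 genes in each, against 1123 and 2403 of 16545 genes. PHLDA2 had −2.03 (SE 0.69, adjusted p = 0.732 by limma) in WT and −2.73 (SE 0.71, adjusted p = 0.187) in GFP lines, CDKN1C had −2.08 (SE 0.75, adjusted p = 0.732) and −1.32 (SE 0.78, adjusted p = 0.430), IGF2 had −2.90 (SE 2.00, adjusted p = 0.777) and 0.99 (SE 2.07, adjusted p = 0.838), DLK1 had 1.62 (adjusted p = 0.817) and 2.31 (adjusted p = 0.445), and PEG3 had 0.57 (adjusted p = 0.860) and 1.37 (adjusted p = 0.330). Without ntEB WT #61, 3 of 10 genes passed in WT (background 5.12%), namely DLK1 with 3.43 (adjusted p = 0.00936), PEG3 with 1.34 (adjusted p = 0.0305) and PHLDA2 with −2.73 (adjusted p = 0.0153). The same 3 passed in GFP lines (background 3.50%), although their differences there stayed at 2.31 (adjusted p = 0.0463), 1.37 (adjusted p = 0.0294) and −2.73 (adjusted p = 0.0182) and #61 was only absent from the shared estimate of the spread. Without ntEB GFP #50, PHLDA2 alone passed in GFP lines (−3.44, adjusted p = 0.00976; 1 of 10 genes, background 16.2%), in a fit where #24 was the lone GFP EB library and was assumed to vary like the other groups.

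Paternally and maternally expressed genes were set side by side by their median log2 difference. In stem cells the medians of the paternally and the maternally expressed genes were 0.20 and 0.35 in ntESC WT, −0.20 and 0.35 in ntESC GFP, and 0.23 and 0.46 over both donors, where the median of all genes was −0.01, 0.00 and −0.01. In EBs they were 0.08 and −0.16 in ntEB WT, 0.79 and −0.97 in ntEB GFP, and 0.40 and −0.56 over both donors, against −0.03, 0.20 and 0.09 over all genes. Over both donors, 5 of 7 paternally and 1 of 3 maternally expressed genes were above 0 in EBs, against 4 of 7 and 2 of 3 in stem cells. These are descriptions of 7 and 3 genes, and neither group of genes had a member that passed.

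Pooled within donor groups, the spread between lines was wider in nuclear transfer than in control lines for most of the 10 genes, and also for most of all genes tested. In ntESCs the SD of log2(TPM + 0.1) within donor groups was above that of control lines in 6 of 10 genes, against 73.7% of all genes, and the median ratio of SDs was 1.48 for the 10 genes and 1.44 for all. PLAGL1 had a ratio of 5.04 (SD 1.70 in ntESCs and 0.34 in control ESCs), CDKN1C 2.69, MEST 2.58 and IGF2 2.55 (SD 2.84 and 1.11), while PHLDA2 had 0.698. In EBs it was 9 of 10 genes, against 83.5% of all genes, with median ratios of 2.88 and 2.17. IGF2 had a ratio of 21.4 (SD 1.53 in ntEBs and 0.07 in control EBs). DLK1 had 4.44, PLAGL1 4.05, GRB10 3.19, PEG3 2.89, MEST 2.88 and NNAT 0.781. In ntEB WT alone the SD was 1.88 for IGF2, 3.25 for DLK1, 2.55 for PLAGL1, 1.39 for PEG3 and 1.29 for MEST. In ntEB GFP (n = 2) these were 0.08, 0.42, 0.056, 0.18 and 0.0095, against 0.07, 0.60, 0.51, 0.40 and 0.37 in control EBs. Among these genes the GFP pair was thus wider than control EBs only for IGF2. GRB10 was wider than in control EBs (0.15) in both donor groups (0.50 in WT and 0.45 in GFP). Limma on absolute deviations called 0 of 10 genes in ntESCs (background 0.292%, lowest adjusted p = 0.209 for PLAGL1) and 0 of 10 in ntEBs (background 20.1%, lowest adjusted p = 0.0770 for IGF2), with 2 of 10 at an unadjusted p under 0.05 in each. A ratio of variances, added after seeing the data, called 0 of 10 in ntESCs (background 0.0186%) and 0 of 10 in ntEBs (background 0%), with 1 of 10 at an unadjusted p under 0.05 in each. On simulated data both tests did poorly at this number of lines, so the ratios are a description.

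Because group means hide lines that depart in opposite directions, each nuclear transfer line was also set against the control range of its stage, and a gene was counted when it lay over 2-fold above the highest or below the lowest control line. In ntESC WT the count was 3 of 10 genes in #30 (IGF2, PLAGL1 and CDKN1C, all higher; background 12.2%), 2 in #53 (IGF2 and PLAGL1, higher; 8.93%) and 1 in #61 (CDKN1C, higher; 2.23%). In ntESC GFP it was 0 in #24 (1.59%), 1 in #50 (PLAGL1, higher; 1.81%), 0 in #54 (6.22%) and 0 in #55 (2.44%). No gene was below the control range by this measure in any ntESC line.

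In EBs the count was 4 in ntEB WT #30 (DLK1, PEG3 and PLAGL1 higher, PHLDA2 lower; background 19.8%), 3 in #53 (IGF2 and DLK1 higher, PHLDA2 lower; 11.7%) and 4 in #61 (IGF2, DLK1, MEST and PLAGL1, all lower; 9.32%). It was 2 in ntEB GFP #24 (DLK1 higher, PHLDA2 lower; 25.8%) and 1 in #50 (DLK1 higher; 8.71%). DLK1 was therefore outside the control range in all 5 ntEB lines, above it in 4 and below it in #61. The share of all genes outside the range in every ntEB line was not computed.

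**Figure D4:**
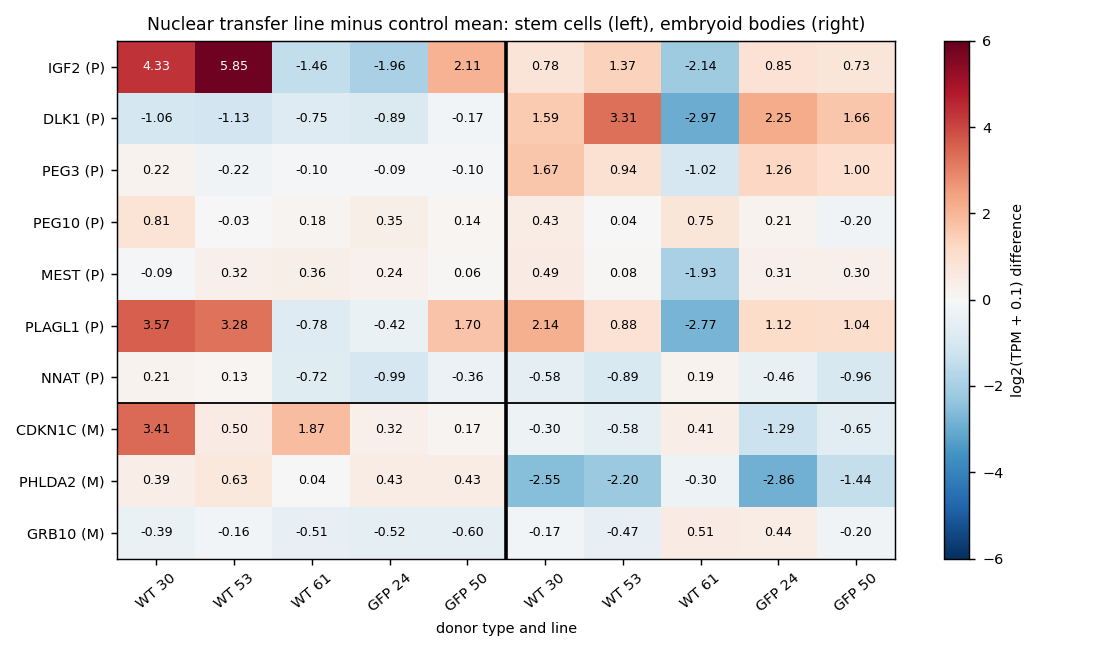
Departure of each nuclear transfer line from the control mean of its stage, in log2(TPM + 0.1), for ntESCs on the left and ntEBs on the right, with WT lines #30, #53 and #61 and GFP lines #24 and #50 as columns. P marks paternally and M maternally expressed genes. IGF2 was above the control mean at both stages in #30, #53 and #50 and below it at both in #61. DLK1 was below the control mean in the WT ntESCs and above it in the ntEBs of #30 and #53.

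The last question was whether a line kept its state as it differentiated. Over the 8 lines with both stages, the correlation between a line's level as stem cells and as EBs passed the exact permutation test in 0 of 10 genes (background 0%), and 0 of 10 genes had an unadjusted p under 0.05, against 1528 of 16545 genes. The highest was that of PLAGL1, with r = 0.66 (exact permutation p = 0.0626, adjusted p = 0.562) and rho = 0.55 (exact permutation p = 0.171). Without #30 and #53, the lines farthest from the median stem cell level, r was 0.54. IGF2 had r = 0.60 (exact permutation p = 0.113, adjusted p = 0.646) and rho = 0.48 (exact permutation p = 0.243), and r = 0.35 without #30 and #53. MEST had r = −0.59 (exact permutation p = 0.0892, adjusted p = 0.609) and rho = −0.52 (exact permutation p = 0.197), and r = −0.18 without #53 and #61. Without those lines the values of IGF2 and MEST were nearer to 0.

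The other 7 genes had r between −0.51 (PHLDA2) and 0.44 (PEG10). The median r was 0.14 over the 10 genes and 0.17 over all genes, and r was above 0 in 6 of 10 genes and in 63.5% of all genes. Counted by sign, a line's departure from the control mean had the same direction at both stages in 5 of 10 genes in WT #30 (53.7% of all genes), 4 in WT #53 (57.6%), 6 in WT #61 (56.9%), 3 in GFP #24 (51.6%) and 5 in GFP #50 (53.5%). IGF2 kept its direction in #30, #53, #61 and #50, and changed it in #24. The pooled relation mixes WT, GFP and control lines, and neither WT, GFP or control lines nor the 5 nuclear transfer lines together reach the 6 lines asked of a correlation.

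**Figure D5:**
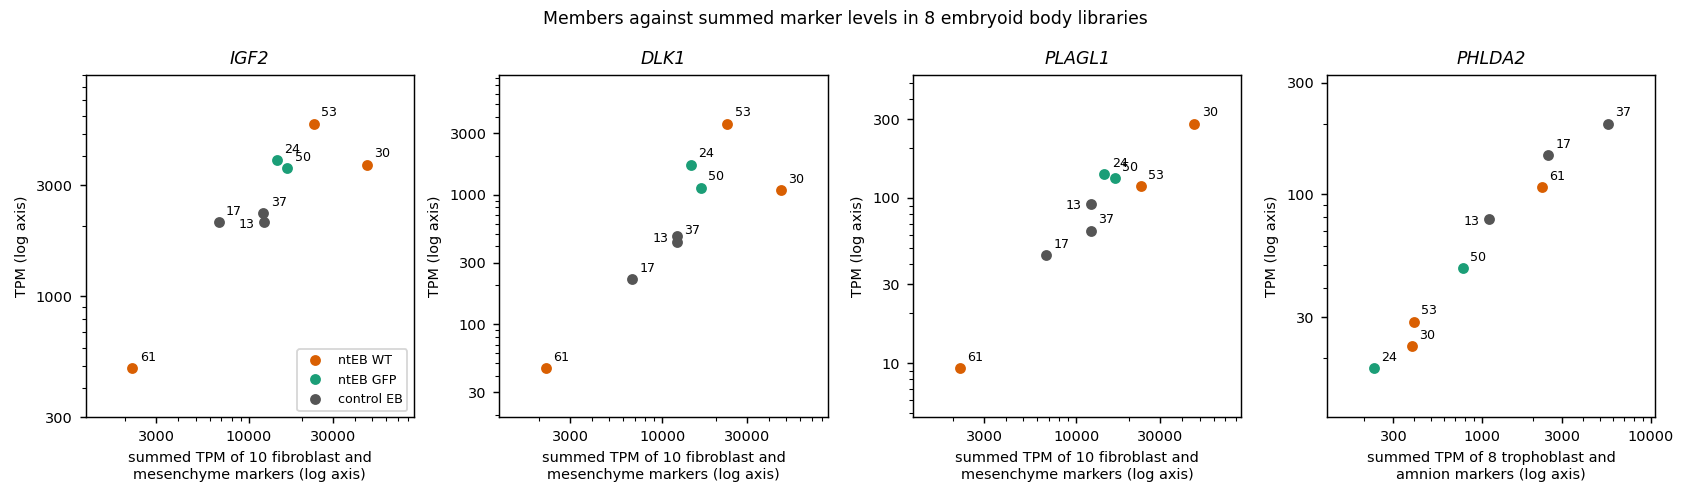
Levels in the 8 EB libraries of IGF2, DLK1 and PLAGL1 against the summed TPM of 10 fibroblast and mesenchyme markers, and of PHLDA2 against the summed TPM of 8 trophoblast and amnion markers, on log axes. Points are libraries of ntEB WT, ntEB GFP and control EB lines with their line number. ntEB WT #61 had the lowest mesenchyme sum (2192 TPM) and the lowest IGF2, DLK1 and PLAGL1, and PHLDA2 put the 8 libraries in the same order as the trophoblast and amnion sum.

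Markers of other cell types moved with several of the genes in EBs. The mesenchyme sum was 46729 TPM (#30), 23353 TPM (#53) and 2192 TPM (#61) in ntEB WT and 14451 TPM (#24) and 16580 TPM (#50) in ntEB GFP, against 12144 TPM (#13), 12126 TPM (#37) and 6750.5 TPM (#17) in control EBs. Of the 10 markers, 8 to 10 were at 1 TPM or more in each EB library. Ranked by this sum, 6 of the 8 libraries had the same rank for PLAGL1, 5 for DLK1 and 1 for IGF2, and #61 was the lowest for all 3 genes. A count of equal ranks does not say how near the other ranks were. For IGF2, as for this sum, ntEBs #30, #53, #24 and #50 were above every control EB.

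The 8 measured trophoblast and amnion markers summed to 387 TPM (#30), 397 TPM (#53) and 2281 TPM (#61) in ntEB WT and 230 TPM (#24) and 773 TPM (#50) in ntEB GFP, against 1099.5 TPM (#13), 5604 TPM (#37) and 2476 TPM (#17) in control EBs, with 7 or 8 of them at 1 TPM or more in each library. PHLDA2, itself a placental gene, ranked all 8 libraries as this sum did, which was so for 1 of the 60 pairs of a gene and a marker list in EBs and 0 of 60 in stem cells. This order was noticed after the values were seen. CGA, 1 of the trophoblast and amnion markers, held 4577.5 TPM of the sum in control EB #37, 1435 TPM in #17 and 454 TPM in #13. In ntEBs CGA held 1266 TPM in #61, 261 TPM in #50, 176 TPM in #30, 58.2 TPM in #24 and 43.7 TPM in #53. The 8 liver and yolk sac markers summed to 914 TPM (#30), 1018 TPM (#53) and 47.9 TPM (#61) in ntEB WT and 957 TPM (#24) and 1817 TPM (#50) in ntEB GFP, against 27.5 TPM (#13), 13.5 TPM (#37) and 260.3 TPM (#17) in control EBs. The same 4 nuclear transfer lines that were above every control in IGF2, DLK1, PEG3 and PLAGL1 were thus above every control in this sum, and #61 lay within the control range. The 5 measured neural markers put these 4 lines (32.9 to 133 TPM) above the controls (12.0 to 26.6 TPM) too, with #61 the lowest (8.00 TPM), and the 7 measured muscle markers summed to 189.5 TPM in #61 and 846.5 to 2928 TPM in the other ntEBs, against 320.1 to 875 TPM in control EBs. In ntEB GFP #24 the pluripotency sum of 5436 TPM included 1247 TPM of POU5F1 and 831 TPM of NANOG, whereas POU5F1 was at most 3.32 TPM in control EBs. The part of these markers in the differences of the imprinted genes was not tested.

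Other imprinted genes were read from 2 lists of 20 genes each, of which 13 paternally and 15 maternally expressed genes were in both tables. Together with 7 genes that keep imprints, 13 genes of the IGF pathway and the named neighbours of the 10 genes, 41 genes could be tested in stem cells and 49 in EBs. Limma called 0 of them in each of the 6 comparisons of nuclear transfer with control lines, and 0 of 47 in either test of the response. At an unadjusted p under 0.05 there were 8, 4 and 2 genes in ntESC WT, ntESC GFP and both donors. Of all genes this was 19.3, 13.8 and 14.2%. In ntEB WT, ntEB GFP and both donors there were 3, 5 and 4, against 3.83, 9.46 and 6.88% of all genes.

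Between stages, 6 of 12 paternally expressed genes of the list passed in control lines, 3 higher and 3 lower, and 8 of 12 maternally expressed ones, 6 higher and 2 lower, against 3423 higher and 5947 lower of all 16545 genes (56.6% called). In WT lines 4 paternally and 3 maternally expressed genes of the lists were higher and 1 and 2 were lower, against 2372 higher and 5307 lower of all genes (46.4%). In GFP lines 6 paternally and 3 maternally expressed genes were higher and 0 of either list lower, against 2247 higher and 2682 lower (29.8%). Named here are genes that passed by limma in each group of lines given, chosen after their values were seen. DIO3, which inactivates thyroid hormone and lies in the DLK1 domain, was higher in EBs by 4.81 on the log2 scale in control, 5.50 in WT and 5.77 in GFP lines. CPA4, a carboxypeptidase gene near MEST, was higher by 3.98, 3.04 and 2.28, and SLC22A18, a transporter gene next to CDKN1C and PHLDA2, by 2.57, 1.79 and 2.34, in that order of groups. SNRPN, a splicing protein gene, was lower in EBs, with −2.62 in control and −1.91 in WT lines. H19, MEG3 and INS were not analysed here.

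Of the 6 tested genes that keep imprints, 4 were lower in EBs of control lines, 6 in WT lines and 3 in GFP lines, and 0 were higher, beside the 56.6, 46.4 and 29.8% of all genes called in these groups of lines. UHRF1, which brings the maintenance methyltransferase to replicated DNA, had log2 differences of −2.68, −2.52 and −1.35, and TRIM28, the corepressor that holds imprints with zinc finger proteins, −1.88, −1.88 and −1.18. Of the 13 tested IGF pathway genes, 2 were higher and 6 lower in control lines, 2 higher and 3 lower in WT lines, and 2 higher and 1 lower in GFP lines. The binding protein genes IGFBP5 (6.49, 5.97 and 7.35) and IGFBP3 (5.05, 5.02 and 5.42) were higher in EBs of control, WT and GFP lines, as IGF2 was, and IGF2BP1, whose protein binds IGF2 mRNA, was lower (−1.28, −1.56 and −0.89). Other binding protein genes went the other way in control lines, IGFBP4 with −3.06 (adjusted p = 0.00506 by limma) and IGFBP2 with −1.58 (adjusted p = 0.0350).

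The genes whose log2 levels ran most like each imprinted gene over the 19 stem cell and EB libraries were found by Pearson's r. For IGF2 they were LOC118145566 (r = 0.99), COL3A1 (0.98) and HAND2 (0.98). For DLK1 they were SSC5D, KCNK3 and LOC100399997 (0.98 to 0.99), and for PLAGL1 HOXC8, SOX6 and TEK (0.98 to 0.99). COL3A1, a collagen gene, is also one of the 10 mesenchyme markers. CDKN1C was nearest to MAN1C1, CAMK1G and ATP6V0B (0.96), GRB10 to SPOUT1, CDK11B and RBM19 (0.95) and PHLDA2 to BPGM, LOC100409903 and LOC100398744 (0.95). The genes that did not pass in control lines between stages had looser neighbours, with r = 0.91 for PEG3 and GPR162, 0.87 for MEST and SLC35F6, 0.82 for NNAT and CDC42SE2 and 0.77 for PEG10 and MRFAP1L1. For the genes that differed between stages the points fall into a stem cell and an EB cluster, and all 19 libraries share this division.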

How the data were processed

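The 10 imprinted genes and all lists were chosen with earlier results of these data known. Poly(A) RNA of 12 stem cell or fibroblast and 8 EB cultures had been sequenced by the authors as stranded libraries on 2 models of NovaSeq instrument, trimmed with fastp, mapped to calJac4 with STAR (unique locations, at most 1 mismatch), counted with featureCounts and converted to TPM without the sex chromosomes. The deposited values are TPM with a sum of 1000000 in each library, which hold no depth, so that no counting interval is given. Strand setting, annotation and the instrument behind each library are not given in the sources used, and overlapping or antisense genes could share reads.

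Tests used limma 3.58.1 (lmFit and eBayes with a trend, R 4.3.3) on log2(TPM + 0.1). Genes whose mean over the libraries of a fit was under 0.5 TPM were left out, and a Benjamini-Hochberg adjusted p under 0.05 over all remaining genes was a call. Fold changes on this scale understate those of low genes. The fits held 11 stem cell libraries (16118 genes), 8 EB libraries (16621 genes) and 19 libraries of both stages (16545 genes), and groups of a fit share 1 estimate of the spread. Levels were set across the 2 tables because TPM is scaled within each library. The fits were tested on simulated data. IVF and NAT lines were 1 control group, as in the study, and the fibroblast library entered no test. In a reference annotation of another build (calJac240_pri), used for names and neighbours, 3 genes lie on X or Y and were dropped.

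Stem cells and EBs of 1 line pair by origin. The correlation of deviations from the group means within a line was −0.08 (#24) to 0.32 (#50). The fit with the line as a block used 16 libraries of 8 lines (16473 genes).

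For the spread between lines, limma on absolute deviations was planned. In simulated data it called mostly genes that had not been changed. A ratio of variances was added after its results were seen, and it recovered none of the simulated wider genes, so the calls of neither test are used to say that spreads were equal or unequal. Persistence was tested by exact permutation of the pairings of 8 lines (Python 3.11.15, numpy 2.4.6), two-sided.

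The genes named are the 10 imprinted genes, for each the 3 genes with the highest Pearson's r over 19 libraries, and list genes called in a comparison of nuclear transfer with control lines, of which there were 0. List genes named for their change between stages were chosen after their values were seen. Alternatives were pseudocounts of 1 and 0.01, no filter, quantile normalization, array weights, the line as a block and leaving out each library. No promoter or protein sequences were used here.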

Additional observations from a re-analysis of the deposited data

Results flagged for a closer look

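NNAT in control ESC #15 (15.9 TPM) lay far below the other 3 control ESC lines (31.7 to 36.4 TPM), and the gap was 0.836 of the range of the group. PHLDA2 in ntESC GFP #54 (25.3 TPM) lay far above the other 3 ntESC GFP lines (16.7 to 16.9 TPM), with a gap of 0.980 of the range on the same log2 scale. These were 2 of 20 groups of 4 lines examined, where chance flags about 1 in 20. PEG10 (495 TPM) and PLAGL1 (40.4 TPM) in the donor fibroblast library, which entered no test, were above every control ESC line, whose highest values were 256 TPM and 0.941 TPM.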

How the results depend on the processing

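Of 1363 values recomputed under alternatives for 78 results, 18 counts moved, 9 single-gene values changed direction, 30 passed a threshold that the result as given did not, and 9 no longer passed it. Array weights raised the number of the 10 genes called, which was 0, to 4 in ntESC WT, 1 in ntESC GFP, 5 over both donors in stem cells, 5 in ntEB WT and 3 in the EB response of WT lines, while calling 4992, 1322, 2407, 4443 and 4223 of all genes, against 15, 71, 34, 1 and 0. Of all array weight fits, some stopped before they converged. Leaving out each library in turn gave 0 to 2 of the 10 genes in ntESC WT, 0 to 1 in ntESC both donors, 0 to 4 in ntEB both donors, and 0 to 3 in the EB response of WT and of GFP lines. Over all genes these counts were 9 to 2900, 8 to 380, 0 to 669, 0 to 847 and 0 to 2684. The spread count ranged over 0 to 2 in ntESCs (2 without #30, background 8.60%, or without #53, background 20.1%). In ntEBs it ranged over 0 to 7 (7 without #30, background 61.0%, or without #53, background 64.5%). With quantile normalization it was 1 in ntEBs (background 27.1%). With ntESC WT #30 and #53 both left out, which like the 3-fold limit was added after seeing the data, IGF2 had a log2 difference of −1.46 and PLAGL1 of −0.78 in ntESC WT, and −0.83 and −0.21 over both donors. Leaving out libraries gave −0.69 to 2.45 for DLK1 and −0.041 to 1.31 for PEG3 in ntEB WT, −0.038 to 1.38 for PHLDA2 between stages in GFP lines, and −0.0067 to 1.34 for PEG3 in the EB response of WT lines. GRB10 had rho = 0.024 between stages over lines, against r = −0.30. The number of departures of lines from the control range was 21 at 2-fold and 13 at 3-fold. The background per line was 1.59 to 25.8% of all genes at 2-fold and was not computed at 3-fold. With the line as a block, 6, 5 and 4 of the 10 genes passed between stages in control, WT and GFP lines, with the PHLDA2 (1.37, WT) and GRB10 (−0.81, GFP) calls lost and no other call of the 10 genes changed, and 2089 of all genes passed in GFP lines, against 4929. In the same 16 libraries without the pairing, added after seeing the data, both calls were lost too (adjusted p = 0.0567 and 0.0898 by limma) and 1986 of all genes passed in GFP lines. Quantile normalization changed the share of higher genes among all calls between stages to 44.2% in WT lines, against 30.9%, and the median of all genes to −0.08, against −0.33. The causes were not tested. Depth is unknown from TPM, so low levels such as those of PLAGL1 and IGF2 in stem cells have no counting limit.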
